A study of Mus musculus with 12 samples.

Results

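The genes described here encode the enzymes of glycolysis, the lactate dehydrogenases and the pyruvate dehydrogenase step with its kinases, together with the isoforms of these enzymes that sperm use. They were 35 genes chosen by symbol, with earlier results of these data known. On the adult array 31 of the 35 were measured out of 19938 genes, and on the newborn array 32 of the 35 were measured out of 18194. Gpi1, Pfkfb1 and Eno1 were not analysed here on either array. Gapdh was not analysed here on the adult array, where 25 probe sets list it together with other genes. Where a gene had several probe sets, that with the highest mean over the arrays of its table was used.

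The study set mouse ovaries without Foxl2 beside normal gonads. Foxl2 is a forkhead factor made by granulosa cells, which surround the oocyte. At 8 weeks there were 3 Foxl2 mutant ovaries of the genotype Foxl2 flox/flox x CreEBD, 3 wild-type testes and 2 wild-type ovaries, each organ from a single animal perfused with PBS. At postnatal day 3 (P3) there were 2 Foxl2 KO ovary samples and 2 wild-type ovary samples, each a pool of more than 10 females, without perfusion. The labels name no agent, time or cell type for the adult deletion and give no strain. Whole ovaries and a part of a testis were used, so all values are averages over the cell types of an organ. Adult values are RMA levels on the log2 scale, and P3 values are MAS5 signals on a linear scale, from another array type.

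Glycolysis turns glucose into pyruvate, which lactate dehydrogenase interconverts with lactate and which pyruvate dehydrogenase feeds into the citric acid cycle in mitochondria. In the ovary, granulosa cells take up glucose and pass pyruvate to the oocyte, and in the testis, Sertoli cells pass lactate to germ cells. Male germ cells replace several of these enzymes with isoforms of their own, among them Pgk2, Gapdhs, Ldhc and Pdha2. Pgk1 and Pdha1 lie on the X chromosome, which is silenced during male meiosis, whereas Pgk2 and Pdha2 are autosomal copies without introns.

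Foxl2 separated the groups as labelled. Its RMA level was 5.81, 6.04 and 5.73 in the mutant ovaries and 5.22, 5.38 and 5.31 in the testes, against 8.75 and 8.81 in the wild-type ovaries, and its P3 signal was 186.4 and 153.7 in the KO pools against 814.5 and 829.9 in the wild-type pools. The 10 spermatid markers, such as Prm1, summed to 21201 to 22966 on the linear scale in the testes, to 140 to 155.8 in the mutant ovaries and to 157.9 to 160.4 in the wild-type ovaries. The wild-type ovaries stood further apart from each other (r = 0.976 across genes) than the mutant ovaries (0.989 to 0.991) or the testes (0.9952 to 0.9955). Wild-type ovaries 1 and 2 had mean log2 levels of 9.75 and 8.71 for the granulosa cell markers, 7.01 and 5.44 for the oocyte markers and 8.53 and 10.53 for the corpus luteum markers. For members that lost their call or changed most without 1 of these ovaries, the value without it is therefore also given. Other members and the marker and pathway lists are not given this way.

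The differences between testis and ovary were largest for Ldhc, Pgk2, Gapdhs and Pgam2, followed by Pdha2. The sperm isoforms Pgk2, Ldhc, Gapdhs and Pdha2 were high in all 3 testes and low in all 5 ovaries, and none passed between mutant and wild-type ovary. The 250 bases before the RefSeq start of the paired isoforms are shown because partners of a pair differed in opposite directions or by very different amounts between testis and ovary. They come from RefSeq on GRCm38.p6, at chr17:40208610-40208859 (minus strand) for Pgk2, chrX:106186850-106187099 (plus) for Pgk1, chr7:46861013-46861262 (plus) for Ldhc, chr7:46845554-46845803 (plus) for Ldha, chr3:141212356-141212605 (minus) for Pdha2 and chrX:160138431-160138680 (minus) for Pdha1. Ldhc and Ldha have 2 RefSeq starts each, of which the most upstream is shown. Each sequence runs 5′ to 3′ along the strand of its gene and ends at the base before the start. Capitals mark matches on either strand to TGACGTCA, the cAMP response element, to TGACG, its shorter core, to GGGCGG, the GC box, and to ACGTG, the core of the hypoxia response element.
Pgk2: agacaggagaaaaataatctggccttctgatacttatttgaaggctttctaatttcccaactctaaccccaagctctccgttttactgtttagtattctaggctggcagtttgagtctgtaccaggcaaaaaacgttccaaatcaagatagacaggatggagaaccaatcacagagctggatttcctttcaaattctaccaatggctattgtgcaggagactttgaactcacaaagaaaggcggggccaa
Pgk1: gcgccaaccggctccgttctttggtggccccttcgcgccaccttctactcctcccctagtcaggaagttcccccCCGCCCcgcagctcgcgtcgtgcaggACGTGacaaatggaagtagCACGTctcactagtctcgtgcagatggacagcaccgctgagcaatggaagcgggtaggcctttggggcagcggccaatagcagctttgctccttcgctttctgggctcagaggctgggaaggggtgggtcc
Ldhc: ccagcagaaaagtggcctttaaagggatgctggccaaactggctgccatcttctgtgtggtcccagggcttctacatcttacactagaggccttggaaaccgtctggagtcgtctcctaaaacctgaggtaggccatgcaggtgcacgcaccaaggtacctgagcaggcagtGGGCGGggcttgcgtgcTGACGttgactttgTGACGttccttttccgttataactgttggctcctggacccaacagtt
Ldha: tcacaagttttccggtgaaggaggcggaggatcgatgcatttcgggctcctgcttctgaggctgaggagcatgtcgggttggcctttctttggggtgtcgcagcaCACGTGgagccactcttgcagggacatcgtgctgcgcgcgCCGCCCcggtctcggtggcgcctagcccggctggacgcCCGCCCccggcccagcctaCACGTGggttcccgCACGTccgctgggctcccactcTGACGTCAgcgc
Pdha2: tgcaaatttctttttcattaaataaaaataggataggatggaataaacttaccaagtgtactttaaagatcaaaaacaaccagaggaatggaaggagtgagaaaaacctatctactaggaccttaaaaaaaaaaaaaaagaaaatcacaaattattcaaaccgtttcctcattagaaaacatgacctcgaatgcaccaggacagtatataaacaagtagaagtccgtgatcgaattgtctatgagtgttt
Pdha1: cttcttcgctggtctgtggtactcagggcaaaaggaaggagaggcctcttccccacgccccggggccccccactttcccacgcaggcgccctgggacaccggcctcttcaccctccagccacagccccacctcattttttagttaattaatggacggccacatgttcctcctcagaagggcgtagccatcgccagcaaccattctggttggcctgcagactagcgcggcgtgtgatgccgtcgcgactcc

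TGACG lies within TGACGTCA, so a match to the full element is also a match to the core. The Ldhc sequence holds TGACG at positions -61 and -47 from the start and a GC box at -78, and its other RefSeq start has none of the 4 motifs in the same window. The Ldha sequence holds the full TGACGTCA at -12, GC boxes at -105 and -67 and 5 matches to ACGTG. Those at -145 and -144 are a single CACGTG read on both strands, as are those at -48 and -47, and the last lies at -34. Pgk1 has a GC box at -176 and ACGTG at -150 and -131. None of the 4 motifs was found in the windows of Pgk2, Pdha2 and Pdha1, nor in those of Gapdhs and Pgam2. Among all 32851 RefSeq promoters of the same length, 1.55% hold TGACGTCA, 17.77% TGACG, 32.74% GGGCGG and 16.57% ACGTG. The 57 promoters of the 35 genes hold them in 1.8%, 15.8%, 36.8% and 29.8%. Base composition differed within pairs, with a GC content of 42% for Pgk2 against 62.8% for Pgk1, 54.4% for Ldhc against 67.2% for Ldha, and 31.6% for Pdha2 against 61.6% for Pdha1. These matches are descriptions of the letters and were not tested as binding sites.

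Pgk2, the autosomal phosphoglycerate kinase of sperm, had RMA levels of 3.11, 3.29 and 3.23 in the mutant ovaries, 10.43, 10.45 and 10.52 in the testes and 3.67 and 3.13 in the wild-type ovaries. Pgk1, the X-linked form of other cells, went the other way, with 8.47, 8.85 and 8.87 in the mutant ovaries, 6.68, 6.71 and 6.72 in the testes and 9.05 and 9.21 in the wild-type ovaries. For both genes the testes did not overlap any ovary. Testis against wild-type ovary gave 7.06 ± 0.16 (SE) for Pgk2 and -2.43 ± 0.14 for Pgk1 on the log2 scale (limma adjusted p = 1.59e-10 and 9.10e-08, n = 3 and 2). Mutant against wild-type ovary gave -0.19 ± 0.16 for Pgk2 and -0.40 ± 0.14 for Pgk1, neither of which passed (adjusted p = 0.503 and 0.0792).

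Ldhc, the lactate dehydrogenase of sperm, had 4.05, 3.82 and 3.87 in the mutant ovaries, 11.38, 11.49 and 11.40 in the testes and 4.24 and 4.30 in the wild-type ovaries. Ldha, the muscle-type subunit of somatic cells, had 9.48, 9.51 and 10.07 in the mutant ovaries, 11.43, 11.37 and 11.25 in the testes and 10.42 and 10.34 in the wild-type ovaries. Unlike the other somatic partners measured, Ldha was also higher in the testes than in the wild-type ovaries, by 0.97 ± 0.16 (adjusted p = 0.000370), beside 7.15 ± 0.12 for Ldhc (adjusted p = 7.23e-11). In the mutant ovaries Ldha was the lowest of the 3 groups, and Ldhc differed from wild-type ovary by -0.36 ± 0.12 without passing (adjusted p = 0.0750).

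Pdha2, the testis form of the alpha subunit of pyruvate dehydrogenase, had 2.92, 2.73 and 2.93 in the mutant ovaries, 7.02, 6.44 and 7.09 in the testes and 2.76 and 2.82 in the wild-type ovaries. Pdha1, the X-linked form, had 8.22, 8.51 and 8.43 in the mutant ovaries, 5.76, 5.95 and 5.87 in the testes and 8.52 and 8.77 in the wild-type ovaries. Testis exceeded wild-type ovary by 4.06 ± 0.19 for Pdha2 (adjusted p = 1.68e-08), and Pdha1 fell by 2.78 ± 0.14, the largest fall of any member in the testis (adjusted p = 2.78e-08). Pdhb, the beta subunit that both alpha forms share, differed by 0.39 ± 0.20 and did not pass (adjusted p = 0.114).

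Gapdhs, the glyceraldehyde phosphate dehydrogenase of the sperm tail, had 3.59, 3.81 and 3.90 in the mutant ovaries, 10.81, 10.89 and 10.84 in the testes and 4.10 and 3.99 in the wild-type ovaries. Pgam2, the muscle-type phosphoglycerate mutase, which sperm also use, had 4.43, 4.43 and 4.77 in the mutant ovaries, 11.02, 11.28 and 11.16 in the testes and 4.85 and 4.63 in the wild-type ovaries. Its relative Pgam1 had 9.18, 8.94 and 9.35 in the mutant ovaries, 6.77, 6.67 and 6.99 in the testes and 9.04 and 9.28 in the wild-type ovaries. Testis minus wild-type ovary was 6.80 ± 0.13 for Gapdhs, 6.42 ± 0.15 for Pgam2 and -2.35 ± 0.15 for Pgam1 (adjusted p = 7.23e-11, 1.65e-10 and 2.63e-07). Eno3, the muscle enolase, was higher in the testis by 2.04 ± 0.16 (adjusted p = 1.05e-06). Of 6 striated muscle markers, none was higher in the testis, and Ckm, the muscle creatine kinase, lay between 5.13 and 5.5 on all 8 arrays. The ovary levels of the 4 sperm isoforms lay below every array's median over all probe sets (4.83 to 4.94) and those of Pgam2 reached 4.85. No detection calls were used for the adult arrays, so whether these transcripts were present in ovary cannot be told.

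**Figure D1:**
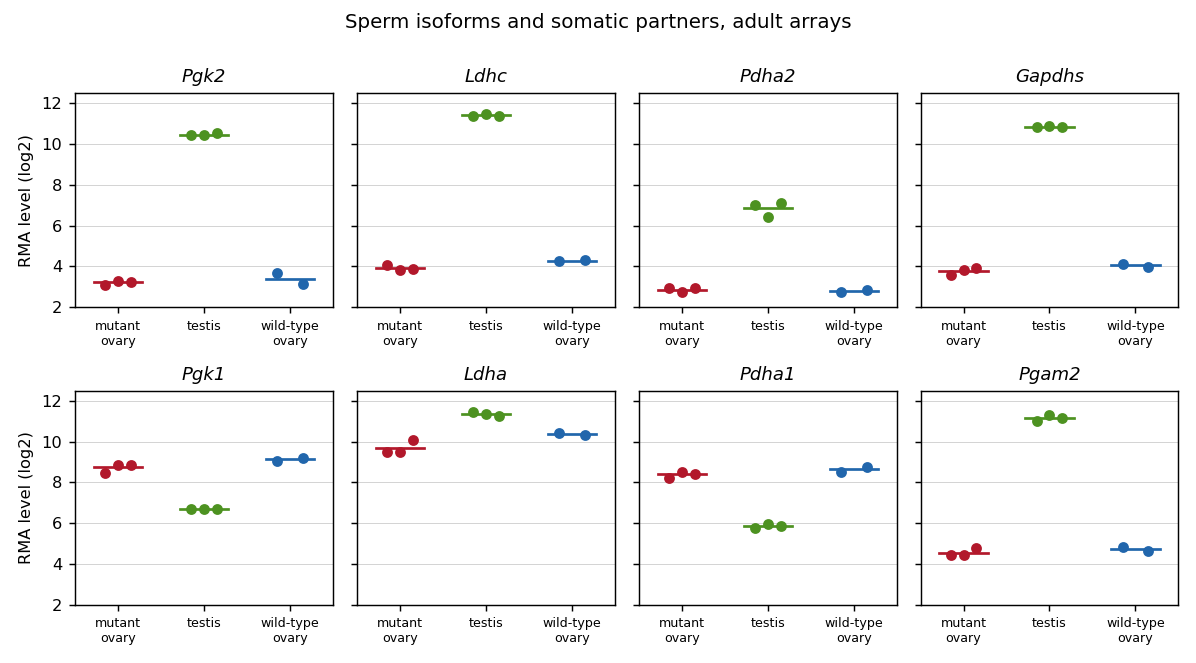
RMA level on the log2 scale of 4 sperm isoforms, 3 somatic partners and Pgam2, with a point per adult array and a bar at the group mean (3 mutant ovaries, 3 testes, 2 wild-type ovaries). The testes stand above all ovaries for Pgk2, Ldhc, Pdha2, Gapdhs, Ldha and Pgam2 and below them for Pgk1 and Pdha1, and levels are to be compared between groups within a panel, not between panels.

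A difference between isoforms within an array compares 2 probe sets, so its size says nothing about which isoform is the more abundant. In the ovaries the sperm isoform of each pair lay below the array median, so there the difference follows the somatic partner and a dim probe set. Its test between mutant and wild-type ovaries is therefore not interpreted. Pgk2 minus Pgk1 averaged -5.52 ± 0.14 in the mutant ovaries, 3.76 ± 0.04 in the testes and -5.73 ± 0.50 in the wild-type ovaries (SD, n = 3, 3 and 2). Ldhc minus Ldha averaged -5.77 ± 0.39 in the mutant ovaries, 0.07 ± 0.10 in the testes and -6.11 ± 0.10 in the wild-type ovaries. For Pdha2 minus Pdha1 the averages were -5.53 ± 0.24 in the mutant ovaries, 0.99 ± 0.43 in the testes and -5.86 ± 0.13 in the wild-type ovaries. In each pair the testes stood 5.85 or more log2 units above both kinds of ovary. In two-sided exact permutation tests the 6 comparisons with testis all reached p = 0.1, the smallest that these group sizes allow. After adjustment over 13 pair tests, those between the kinds of ovary and at P3 included, this is 0.217, so none could pass 0.05.

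Mutant and wild-type ovaries were compared to see which members differed at 8 weeks without Foxl2. The members that passed were a hexokinase, 2 phosphofructokinase subunits and a regulator of that enzyme, the triosephosphate isomerase, both somatic lactate dehydrogenase subunits and 2 kinases that switch pyruvate dehydrogenase off. Of 31 members 9 passed, or 29%, beside 16.2% of all 19938 genes (limma, adjusted p under 0.05 by the Benjamini-Hochberg method). Higher were 6 members, or 19.4%, beside 9.55% of all genes, and lower were 3, or 9.7%, beside 6.66%. The median difference of the members was -0.11, against -0.02 for all genes.

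At the first step, Hk2, an inducible hexokinase that binds mitochondria, had RMA levels of 8.70, 8.46 and 9.23 in the mutant ovaries against 7.23 and 7.71 in the wild-type ovaries. The groups did not overlap, and the difference was 1.33 ± 0.22 (SE, adjusted p = 0.00222). Hk3 differed by 0.14 ± 0.19 (adjusted p = 0.685). Of the phosphofructokinase subunits, which set the pace of glycolysis, the liver form Pfkl had 9.32, 8.99 and 9.33 in the mutant ovaries against 8.51 and 8.13 in the wild-type ovaries, higher by 0.90 ± 0.16 (adjusted p = 0.00313). The platelet form Pfkp moved the other way, with 6.48, 6.54 and 6.86 in the mutant ovaries against 7.35 and 8.33 in the wild-type ovaries, and fell by 1.21 ± 0.24 (adjusted p = 0.00613). Its size depended on wild-type ovary 2, without which the difference was -0.73, still past the threshold (adjusted p = 0.0103). The muscle form Pfkm lay at 8.44 to 8.70 in the mutant ovaries and at 8.52 and 8.54 in the wild-type ovaries. Pfkfb2, 1 of the enzymes that make and break down the sugar phosphate activating phosphofructokinase, had 7.23, 7.43 and 7.46 in the mutant ovaries against 6.84 and 6.93 in the wild-type ovaries, a difference of 0.49 ± 0.13 (adjusted p = 0.0300). The related Pfkfb3 and Pfkfb4 differed by -0.01 and 0.29 without passing.

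In the lower part of the pathway, Tpi1, the triosephosphate isomerase, had 9.09, 9.37 and 9.56 in the mutant ovaries against 10.31 and 10.14 in the wild-type ovaries, and fell by 0.89 ± 0.14 (adjusted p = 0.00139). Aldoa, Aldoc, Gapdhs, Pgk1, Pgk2, Pgam1, Pgam2, Eno2, Eno3, Pkm and Pklr, from the aldolases to the pyruvate kinases, did not pass, with differences between -0.75 (Aldoc) and -0.01 (Pgam1). The subunits of lactate dehydrogenase went in opposite directions. Ldha, listed by array above, fell by 0.69 ± 0.16 (adjusted p = 0.0153), while Ldhb, the heart-type subunit, had 10.01, 9.35 and 9.74 in the mutant ovaries against 9.28 and 8.25 in the wild-type ovaries, higher by 0.94 ± 0.27 (adjusted p = 0.0401). The lowest mutant value of Ldhb exceeded wild-type ovary 1 by little, and its difference was 0.43 without wild-type ovary 2 (adjusted p = 0.218) and 1.45 without wild-type ovary 1 (adjusted p = 0.000706).

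The pyruvate dehydrogenase kinases phosphorylate the alpha subunit of pyruvate dehydrogenase and so lower its activity. Pdk3 had 8.42, 8.34 and 8.64 in the mutant ovaries against 7.41 and 6.78 in the wild-type ovaries, the largest difference of any member at 1.37 ± 0.18 (adjusted p = 0.000448). Pdk1 had 7.86, 7.88 and 7.75 in the mutant ovaries against 6.64 and 6.52 in the wild-type ovaries, higher by 1.25 ± 0.12 (adjusted p = 7.18e-05). For neither kinase did the groups overlap. Pdk2 differed by -0.03 ± 0.19 and Pdk4 by -0.11 ± 0.38, with wild-type ovaries at 7.51 and 6.05 for Pdk4. The enzyme subunits themselves, Pdha1 and Pdhb, differed by -0.26 ± 0.14 and -0.36 ± 0.20 and did not pass (adjusted p = 0.253 and 0.262).

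**Figure D2:**
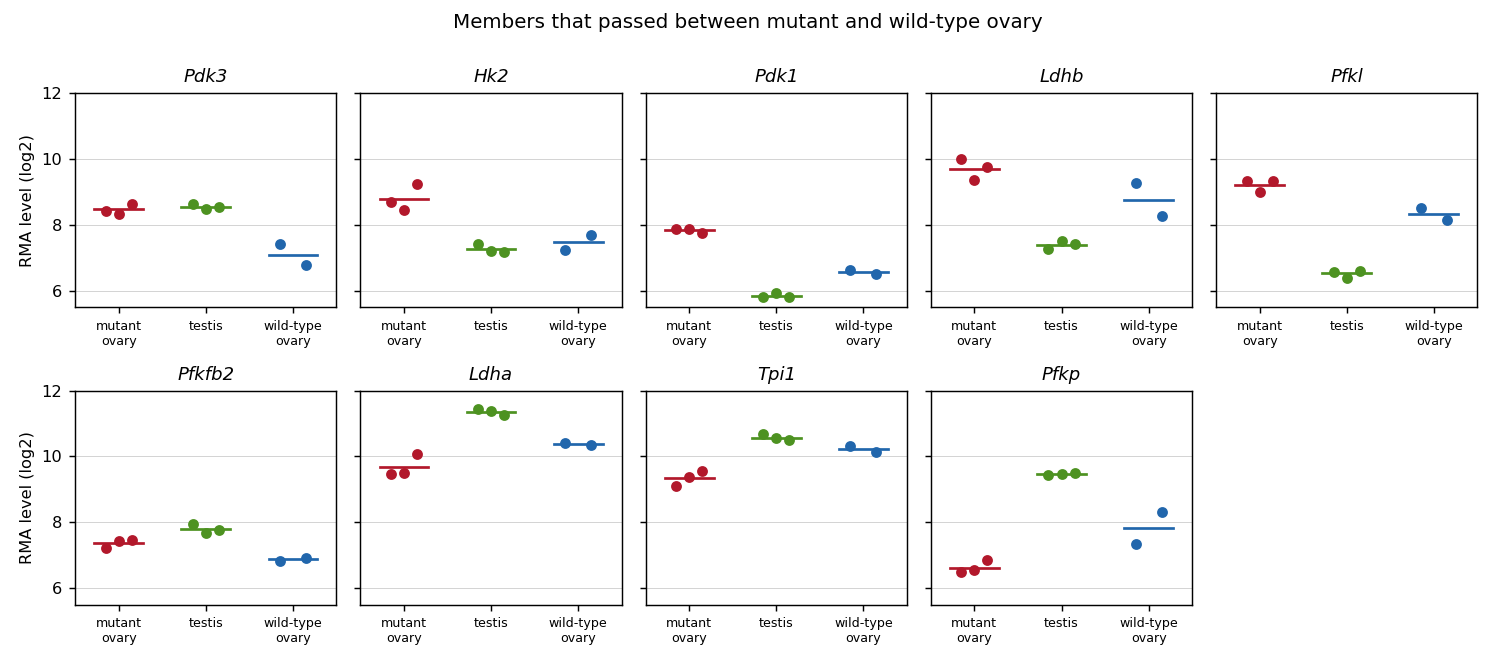
RMA level on the log2 scale of the 9 members that passed between mutant and wild-type ovary, with a point per adult array and a bar at the group mean (3 mutant ovaries, 3 testes, 2 wild-type ovaries). Mutant ovaries stand above both wild-type ovaries for Pdk3, Hk2, Pdk1, Ldhb, Pfkl and Pfkfb2 and below them for Ldha, Tpi1 and Pfkp.

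Cell type markers also differed between these organs. All 9 measured Sertoli cell markers were higher in the mutant ovaries (summed linear level 10477 to 11473, against 2989 to 3675 in the wild-type ovaries), and 6 of 9 granulosa cell markers were lower (3756 to 5139 against 6600.15 to 10792). All 7 smooth muscle markers were lower (1441 to 2382 against 3148 to 3583), and so were 4 of 6 endothelial markers (709 to 880 against 1029.6 to 1641), while 1 granulosa cell and 2 of 7 leukocyte markers were higher and none of the 10 oocyte markers passed. Also higher were Alas2, the single erythrocyte marker measured (0.91 ± 0.23, adjusted p = 0.0228), and 1 of 7 spermatocyte markers, Hspa2 (0.57 ± 0.12, adjusted p = 0.00820). Their part in the differences of the members was not tested, and in whole organs fewer cells of a type and less RNA per cell cannot be told apart. Under 1 or more of the other settings, the calls of Ldhb, Pfkfb2 and Ldha were lost: with only the mutant and wild-type ovaries in the fit, all 3 missed the threshold (adjusted p = 0.123, 0.107 and 0.0800). Pfkfb2 also missed it without wild-type ovary 1 (0.45) and without mutant ovary 2 or 3 (0.46 and 0.45), and Ldhb without mutant ovary 1 or 3 (0.78 and 0.92), after centring each array on its median (0.91, adjusted p = 0.0507) and after quantile normalization (0.84, adjusted p = 0.0694). Without wild-type ovary 1, Aldoc (-1.27, adjusted p = 0.0126) and Pdhb (-0.69, adjusted p = 0.0173) passed as well.

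The comparison of testis with wild-type ovary gives the range over which these genes differ between the normal gonads. Of 31 members 27 passed, or 87.1%, beside 60.3% of all genes. Higher in the testis were 15, or 48.4%, beside 24.4% of all genes, and lower were 12, or 38.7%, beside 35.9%. The median of the members was 0.35 and that of all genes -0.15. Besides the sperm isoforms, Pgam2, Eno3 and Ldha, the testis was higher in Pdk2 (1.77 ± 0.19), all 3 measured Pfkfb genes, Pfkp, Pfkm, Pdk3 and Tpi1. It was lower in Pdk4, Pfkl, Ldhb, Aldoc, Pkm, Aldoa, Pdk1 and Eno2, beside Pdha1, Pgk1 and Pgam1. Of these, Eno2 was dim, at 3.70 to 4.52 over the adult arrays, below every array median (4.83 to 4.94). Hk1 was also called lower with the probe set used, while its other probe set went the other way, as given below.

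Pfkfb4, a form abundant in testis, had 7.99, 7.95 and 7.99 in the testes against 6.26 and 6.30 in the wild-type ovaries, higher by 1.70 ± 0.12 (adjusted p = 4.30e-07). The subunits of phosphofructokinase split again, since Pfkp had 9.43, 9.48 and 9.49 in the testes against 7.35 and 8.33 in the wild-type ovaries (1.62 ± 0.24), and Pfkl had 6.58, 6.38 and 6.60 in the testes against 8.51 and 8.13 in the wild-type ovaries (-1.80 ± 0.16). Ldhb, at 7.27, 7.50 and 7.41 in the testes, fell by 1.37 ± 0.27, while Ldha was higher. Pdk4, a kinase that rises in fasting in other tissues, had 4.36, 4.40 and 4.66 in the testes against 7.51 and 6.05 in the wild-type ovaries (-2.31 ± 0.38, adjusted p = 0.000346). Aldoa and Pkm, abundant enzymes of most tissues, fell by 0.90 ± 0.10 and 0.93 ± 0.14. Some of these calls rested on single arrays or on the scaling: Tpi1 (0.35 ± 0.14, adjusted p = 0.0464) was lost in 8 of 13 settings, among them quantile normalization (0.11) and leaving out any testis or wild-type ovary 2. Without wild-type ovary 1, Pfkfb3 was 0.34 and missed the threshold (adjusted p = 0.0618, against 0.71 with all arrays and 1.08 without wild-type ovary 2) and Ldhb was -0.86. Without wild-type ovary 2, Aldoc was -0.63 and Eno2 -0.35, and neither passed (adjusted p = 0.0978 and 0.202), and Eno2 was also lost without testis 1 or 2 (-0.46 and -0.38).

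All 10 spermatid markers were higher in the testis, and so were all 7 meiotic spermatocyte markers, whose mean log2 level was 9.33 to 9.47 in the testes against 3.89 to 3.99 in the wild-type ovaries. Lower in the testis were 9 of 10 oocyte markers, 8 of 9 granulosa cell markers, all 6 endothelial markers and 6 of 7 leukocyte markers. So were 6 of 7 smooth muscle markers, with 1 higher, and all 3 corpus luteum markers measured. Of 9 Sertoli cell markers, 5 were higher in the testis and 2 lower. The part of these markers was not tested.

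Set directly against testis, the mutant ovaries were lower in every sperm isoform and higher in Pgk1, Pgam1 and Pdha1. Of 31 members 26 passed, or 83.9%, beside 61.8% of all genes, with 11 higher in the mutant ovaries (35.5%, beside 37.5% of all genes) and 15 lower (48.4%, beside 24.3%). The median of the members was -0.09 and that of all genes 0.14. The differences were -7.51, -7.25, -7.08 and -6.61 for Ldhc, Pgk2, Gapdhs and Pgam2 and -3.99 for Pdha2. Pfkl (2.69 ± 0.14), Pdha1 (2.53 ± 0.12), Pgam1 (2.34 ± 0.14), Ldhb (2.31 ± 0.24) and Pgk1 (2.03 ± 0.12) were higher in the mutant ovaries. Pfkp (-2.84 ± 0.21), Ldha (-1.67 ± 0.14) and Tpi1 (-1.23 ± 0.12) were lower in the mutant ovaries than in testis. Of the kinases, Pdk1 exceeded the testis level by 1.99 ± 0.11, whereas Pdk3, at 8.34 to 8.64 in the mutant ovaries and 8.48 to 8.62 in the testes, differed by -0.09 ± 0.16 (adjusted p = 0.665). All 9 Sertoli cell markers and 8 of 9 granulosa cell markers were higher in the mutant ovaries than in testis, and all 10 spermatid markers were lower. Their part was not tested. The 3 adult comparisons share their arrays, so values in one bear on the others and are set side by side without a test of their likeness.

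**Figure D3:**
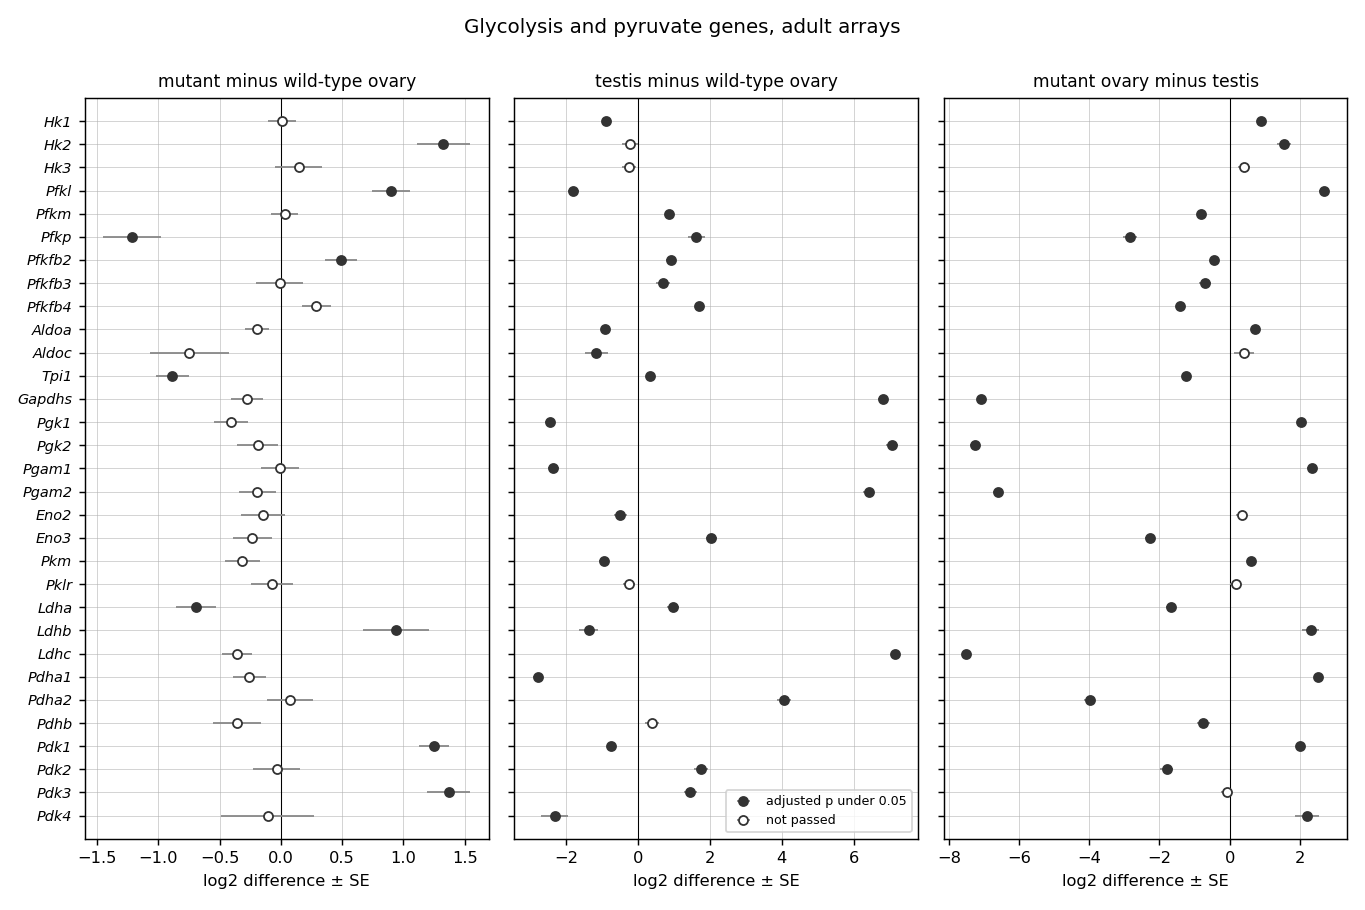
Log2 difference with its SE for the 31 members measured on the adult arrays, in the order of the pathway, for mutant minus wild-type ovary, testis minus wild-type ovary and mutant ovary minus testis. Hk1 is drawn from its probe set with the highest mean, and its other probe set went the other way in the testis. Filled points passed an adjusted p under 0.05 over all genes, and the panels have different horizontal scales: differences between the kinds of ovary stay between -1.21 and 1.37, whereas those with testis reach 7.15 and -7.51.

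Hk1, the hexokinase of most tissues, gave opposite results with its 2 adult probe sets. The probe set with the highest mean had 11.05, 11.43 and 11.12 in the mutant ovaries, 10.26, 10.34 and 10.33 in the testes and 11.17 and 11.21 in the wild-type ovaries. The other had 6.93, 7.05 and 7.22 in the mutant ovaries, 11.11, 11.07 and 11.16 in the testes and 7.56 and 7.35 in the wild-type ovaries. Testis minus wild-type ovary was therefore -0.88 ± 0.11 by the first (adjusted p = 4.90e-05) and 3.66 by the second (adjusted p = 1.21e-09), and mutant ovary minus testis was 0.89 ± 0.10 and -4.05. The first lists a single accession, which 16 further probe sets list for both Rpl17, a ribosomal protein gene, and Hk1, and those 16 differed between testis and wild-type ovary by -1.32 to -0.76. The second lists 8 accessions, RefSeq mRNAs among them. A testis form of hexokinase from the Hk1 gene is known in mouse. The first shares its only accession with those 16, so its value cannot be assigned to Hk1 alone. The direction of Hk1 in the testis thus depends on the probe set. The counts of members above take Hk1 from the first, as lower in the testis than in wild-type and mutant ovary. In the mutant ovaries neither probe set passed against wild-type ovary (0.01 and -0.39). With probe sets that list a RefSeq mRNA, chosen after the data were seen, 16 members were higher and 11 lower in testis than in wild-type ovary, and Pkm was -0.49 in place of -0.93.

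**Figure D4:**
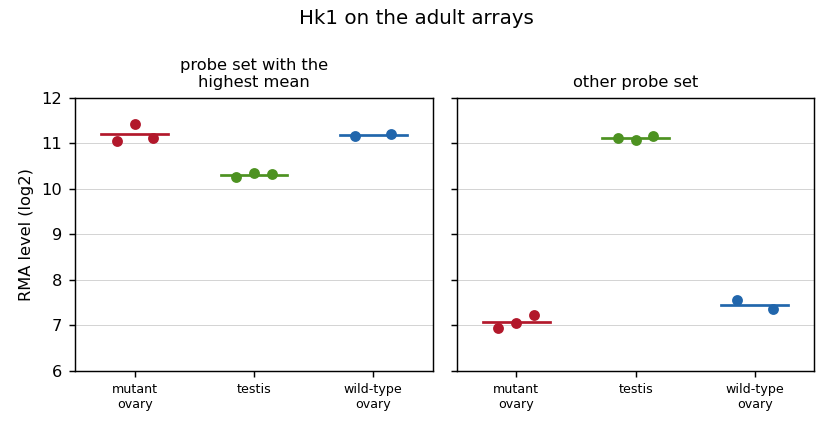
RMA level on the log2 scale of the 2 Hk1 probe sets, with a point per adult array and a bar at the group mean (3 mutant ovaries, 3 testes, 2 wild-type ovaries). The testes lie below the ovaries in the probe set with the highest mean and above them in the other.

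At P3 the comparison of KO with wild-type pools asked whether the same genes differed in newborn ovaries. No member passed: 0 of 31 tested, beside 0.324% of all 18193 genes in either direction, 0.137% higher and 0.187% lower (limma on log2(signal + 16), adjusted p under 0.05). At an unadjusted p under 0.05 there were 6 members, and 1734 of all genes, or 9.53%. The median difference was 0.10 for the members and -0.01 for all genes. With 2 pools a group only large differences can pass, and fold changes of dim genes are understated by the added 16.

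Aldoc, the brain-type aldolase, came nearest to the threshold, with signals of 838.5 and 1096.2 in the KO pools against 315.9 and 390.5 in the wild-type pools (1.41 ± 0.21, adjusted p = 0.0744). Pdk4 had 647.1 and 666.8 in the KO pools against 274.4 and 346.1 in the wild-type pools (1.05 ± 0.20, adjusted p = 0.124). Hk2, which passed in the adult mutants, had 335.4 and 302.6 in the KO pools against 136.1 and 140.4 in the wild-type pools (1.12 ± 0.25, adjusted p = 0.181). In these 3 genes both KO pools exceeded both wild-type pools. A second, dimmer probe set of Aldoc gave 0.19. When genes with a mean signal of at most 100 in both groups were left out, which lowers the number of genes tested, Aldoc and Pdk4 passed (adjusted p = 0.0247 and 0.0480). Pdk1 had 3492.3 and 3779.1 in the KO pools against 2817 and 3039.3 in the wild-type pools (0.31 ± 0.12, adjusted p = 0.473), while its 4 probe sets ranged from -0.40 to 0.31. Pdk3, the member with the largest difference in the adult mutants, had 1343.9 and 1318.4 in the KO pools against 1221.5 and 1584.5 in the wild-type pools, which overlap.

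Ldha had 6916 and 7152.1 in the KO pools against 5313.7 and 5401.9 in the wild-type pools (0.39 ± 0.11, adjusted p = 0.275). Ldhc had 111.9 and 105.2 in the KO pools against 200 and 255.3 in the wild-type pools (-0.96 ± 0.29, adjusted p = 0.343). Pgk1 gave 9256.8 and 9875.9 in the KO pools against 7208.8 and 9987.7 in the wild-type pools, and Pgk2 gave 3.2 and 10.1 against 21.4 and 3.5, near the bottom of the scale. For Pdha1 the signals were 1546.6 and 1341.5 in the KO pools against 1684.3 and 1673.1 in the wild-type pools, and for Pdha2 they were 5.2 and 54.0 against 3.0 and 2.8. Gapdhs gave 118.2 and 100.4 in the KO pools against 128.5 and 100.3 in the wild-type pools.

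Gapdh, read at P3 only by the array's control probe sets, gave 14526.6 and 15446.4 in the KO pools against 13290.1 and 12781.1 in the wild-type pools at its 3′ end. The ratio of its 3′ to its 5′ signal was 17.4 and 30.4 in the KO pools against 16.3 and 23.2 in the wild-type pools, above 16 in all 4 pools. Within arrays, Ldhc minus Ldha differed by -1.35 between KO and wild-type pools (two-sided exact permutation p = 0.333, the smallest possible, adjusted 0.481). The tests of the other pairs at P3 are not interpreted, because of the low signals of their sperm isoforms. Pgk2 and Pdha2 gave at most 21.4 and 54.0 and Gapdhs at most 128.5, beside array medians of 116.6 to 126.8. Ldhc was also dim in the KO pools, at 111.9 and 105.2, below these medians. The difference of its pair thus rests partly on a dim probe set. Among all members outside the 6, differences lay between -0.47 (Eno2) and 1.03 (Pdha2, whose value rests on 1 KO pool). At P3, 2 of 10 oocyte markers and 2 of 9 granulosa cell markers were lower in the KO pools, with summed signals of 61260 to 65838.5 against 83399.8 to 90295.4 for the oocyte list. For the granulosa cell list the summed signals overlapped, at 17955.3 to 19003.2 in the KO pools against 17237.8 to 18366.5 in the wild-type pools. The part of these markers in the values of the members was not tested.

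**Figure D5:**
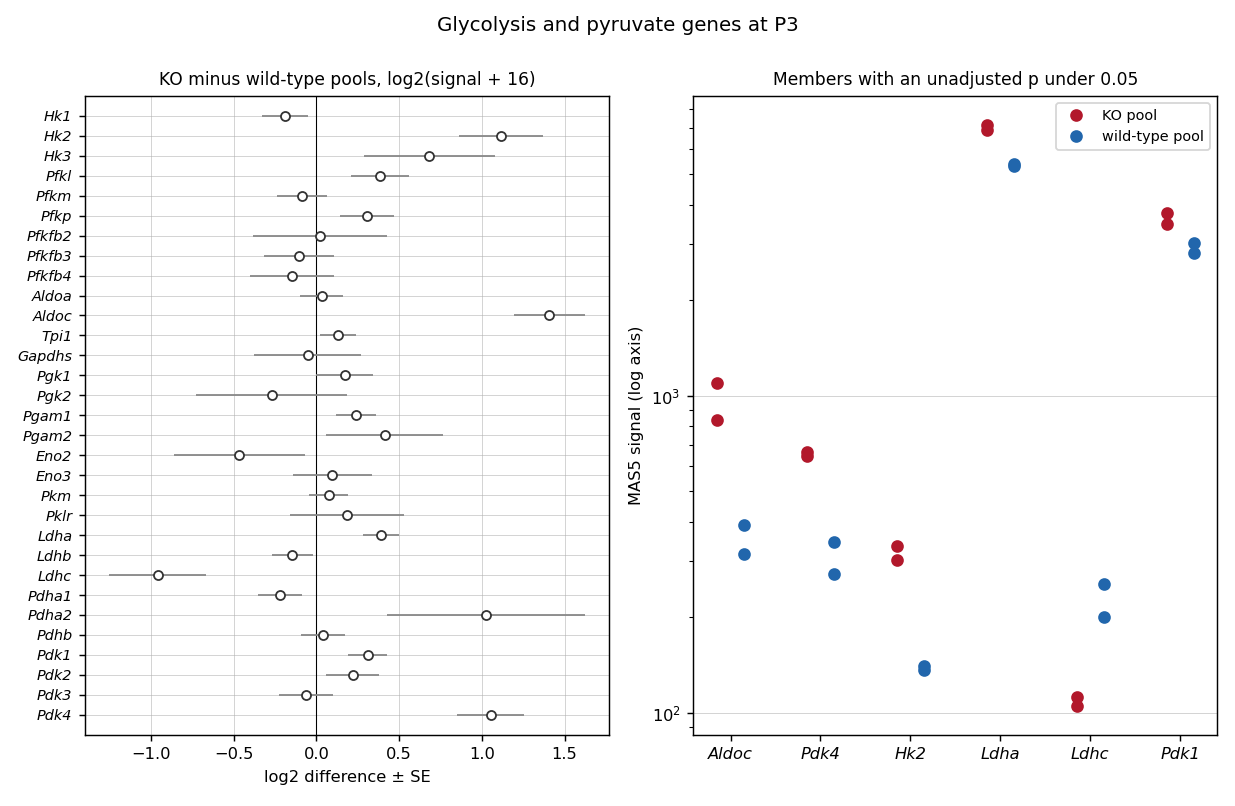
Left, log2(signal + 16) difference with its SE between KO and wild-type pools at P3 for the 31 members tested, none of which passed (open points). Right, MAS5 signal on a log axis in each pool for the 6 members with an unadjusted p under 0.05, where KO pools stand above wild-type pools for Aldoc, Pdk4, Hk2, Ldha and Pdk1 and below them for Ldhc.

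Neighbouring pathways were read from lists of other genes. Of 13 other glycolysis genes, 2 were higher and 1 lower in mutant than in wild-type ovary, with Gpd1, a glycerol phosphate dehydrogenase, at 1.73 ± 0.26, Pgm2 at 0.59 ± 0.15 and Adpgk, an ADP-dependent glucokinase, at -1.07 ± 0.16. In testis against wild-type ovary 7 were higher and 3 lower, with the largest differences in Aldoart2, a testis aldolase, at 4.82 ± 0.11, Ldhal6b, a lactate dehydrogenase relative, at 4.53 ± 0.16, and Gpd2, the mitochondrial glycerol phosphate dehydrogenase, at 3.90 ± 0.12. Mutant ovary minus testis was -4.93, -4.65 and -4.03 for these 3 genes, with 5 of the list higher and 6 lower.

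The other genes around pyruvate dehydrogenase include the phosphatases that oppose its kinases. Of 8 measured genes of pyruvate entry and the complex, 2 were higher and 1 lower in mutant than in wild-type ovary. The higher were Pdp1, the phosphatase that reverses the kinases (1.56 ± 0.24, adjusted p = 0.00152), and Pdpr, the regulator of that phosphatase (1.34 ± 0.13, adjusted p = 7.83e-05). Pcx, the pyruvate carboxylase, fell by 0.67 ± 0.15 (adjusted p = 0.0128). In the testis 2 were higher and 2 lower than in wild-type ovary, among them Pdp2 at -1.78 ± 0.20, and 5 were higher and 2 lower in mutant ovary than in testis. Of 16 citric acid cycle genes, 1 was higher and 5 lower in mutant than in wild-type ovary (median -0.27), 2 higher and 13 lower in testis than in wild-type ovary (median -0.67), and 11 higher and 3 lower in mutant ovary than in testis (median 0.61). The lower genes in the mutant ovaries included Sdhb, a subunit of succinate dehydrogenase (-0.90 ± 0.11), and Idh2, an isocitrate dehydrogenase (-0.89 ± 0.17), while Sucla2, a subunit of succinyl-CoA ligase, was higher (0.67 ± 0.11).

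The 6 gluconeogenesis genes held 1 lower in the mutant ovaries, Pck2, the mitochondrial phosphoenolpyruvate carboxykinase (-0.85 ± 0.12), and in testis against wild-type ovary 2 higher and 1 lower. Higher in the testis were Fbp1, a fructose bisphosphatase (6.30 ± 0.28), and G6pc3, a glucose phosphatase (1.40 ± 0.11), and Pck2 was lower (-2.49 ± 0.12). Since several glycolysis genes are known targets of the hypoxia response, 11 other genes of that response were read as well. In mutant against wild-type ovary 2 were higher, Egln1, an oxygen-sensing hydroxylase, by 1.49 ± 0.12 and Ndrg1 by 0.83 ± 0.13, and 2 were lower, among them Bnip3 at -0.67 ± 0.18, with a list median of -0.07. In testis against wild-type ovary none of the 11 was higher and 9 were lower (median -1.36), with Vegfa at -2.84 ± 0.30 and Hif1a at -2.61 ± 0.12, and in mutant ovary against testis 9 were higher and none lower (median 1.58). At P3 none of these 5 lists held a gene that passed (limma, adjusted p under 0.05).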

How the data were processed

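Total RNA was measured with arrays, 8 for adult and 4 for P3 gonads. The deposited adult values are log2 levels that the authors made with RMA in the Affymetrix Expression Console, and the deposited P3 values are MAS5 intensity signals on a linear scale, per the submitters' processing notes. Each P3 array has the same mean of 500 after trimming 2% at each end. The labels describe CodeLink labelling for P3, which was not reconciled with MAS5. No source used here gives software versions. Genes came from the platform annotation, with symbols updated through RefSeq GRCm38.p6, using probe sets listed with a single gene. Each gene was read from its probe set with the highest mean, and control probe sets were not tested. limma 3.58.1 in R 4.3.3 (lmFit, eBayes with an intensity trend) fitted the 8 adult arrays with a mean per group, and the 4 P3 arrays alone as log2(signal + 16), and was tested on simulated data. Tests were two-sided, with Benjamini-Hochberg adjustment over all genes. No test crosses the 2 tables. Depth does not apply to arrays, where the number of samples limits the precision. Named genes were the members, and per other list up to 3 genes with the largest differences among those that passed. The members, lists and tests were chosen with earlier results of these data known. Alternatives covered probe sets, dim genes, scaling, pseudocounts of 1 and 64, groups fitted, replicate numbers as a block and leaving out arrays. Every array was used.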

Additional observations from a re-analysis of the deposited data

Results flagged for a closer look

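For 5 of 31 members, every mutant or KO array lay on one side of every wild-type array at both ages, but in opposite directions, and for 5 others in the same direction (16.1% each). Among all 16553 genes measured at both ages, 6.56% lay apart in opposite directions and 10.6% in the same direction (16.2% of all genes passed at 8 weeks and 0.324% at P3). Hk2, Pfkl and Pdk1 were the members above wild-type at both ages, and Ldhc and Pdha1 those below. Of these, Hk2, Pfkl and Pdk1 passed at 8 weeks only, and Ldhc and Pdha1 passed at neither age. The 4 probe sets of Pdk1 at P3 ranged from -0.40 to 0.31. The difference between ages was not tested, because the ages lie on different array types. Pfkp differed by -1.21 between mutant and wild-type ovary at 8 weeks and by 0.31 between KO and wild-type pools at P3, where its 3 probe sets ranged from -0.66 to 0.59. Tpi1 differed by -0.89 at 8 weeks and by 0.13 at P3. Ldha differed by -0.69 at 8 weeks and by 0.39 at P3. Ldhb differed by 0.94 at 8 weeks and by -0.15 at P3, where its 4 probe sets ranged from -0.15 to 0.01. Pfkfb4 differed by 0.29 at 8 weeks and by -0.15 at P3, and passed at neither age. None of the 5 that differed in opposite directions passed at P3 (limma, adjusted p between 0.275 and 0.924).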

How the results depend on the processing

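Counts of members past the threshold ranged over 6 to 10 between mutant and wild-type ovary (9 as reported, 6 with only those ovaries in the fit), 25 to 27 between testis and wild-type ovary and 26 to 28 between mutant ovary and testis, across all settings tried. At P3 the count was 2 in place of 0 when dim genes were left out, and also 2 with the replicate block, and 0 in the other settings. Of 956 settings of single members, 912 kept direction and side of the threshold. They cover the 72 member results that passed in the reported fit or changed in a setting. Several settings cannot move an estimate, since only 5 of 31 members have several probe sets on the adult array. The count is therefore no measure of robustness. Hk1 reversed with another choice of probe set, to 1.39 (mean of its probe sets) and 3.66 (probe sets with a RefSeq mRNA, added after the data were seen) for testis minus wild-type ovary, and to -1.58 and -4.05 for mutant ovary minus testis. Pdk3, Hk2, Pdk1, Pfkl, Pfkp and Tpi1 passed between mutant and wild-type ovary in all 13 settings. Members gained there, beside Aldoc and Pdhb, were Pkm (-0.46) without mutant ovary 3 and Pgk1 (-0.52) after quantile normalization, which also brought Pfkm to 0.52 in testis against wild-type ovary. Pgk2 minus Pgk1 ranged from -0.14 to 0.56 between mutant and wild-type ovary and from 9.14 to 9.85 between testis and wild-type ovary when single arrays were left out, where the ovary values of Pgk2 lie below the array medians. Of the isoform pairs, 72 of 76 settings moved by less than the spread between replicates. Most of these settings left out 1 array, which moves a group mean by less than the SD of that group. This count is therefore no measure of robustness either.

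The reported fits did not pair samples by replicate number. Deviations of same-numbered arrays correlated at -0.003 to 0.079 among adult groups, and each testis correlated best with the mutant ovary of its own number. Wild-type ovary 1 correlated best with mutant ovary 1 (0.068), but wild-type ovary 2 with mutant ovary 3 (0.067, against -0.003 for mutant ovary 2). At P3 same-numbered pools correlated at 0.042, and with 2 pools a group this check is a single value that cannot decide. The 3′ to 5′ ratio of Gapdh was 16.3 and 17.4 in the pools numbered 1 and 23.2 and 30.4 in those numbered 2. Whether the numbers mark a pairing was thus not settled. With the replicate block the counts were 8, 25 and 26 for the adult comparisons and 2 at P3 (Aldoc and Pdk4), and Pfkfb2 no longer passed between mutant and wild-type ovary (0.47, adjusted p = 0.0834). Over all genes, 1731 in place of 3232 passed between mutant and wild-type ovary with only those ovaries in the fit, and at P3 59 became 22 with the mean of all probe sets, 197 without dim genes, 305 with the block, 0 without the intensity trend (1734 at an unadjusted p under 0.05 in the reported fit) and 0 to 22 without single pools. Only 2 wild-type ovaries limit every adult result against them, neither table has detection calls, and the cause of these changes was not tested.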
